A study of Mus musculus with 12 samples.

Results

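The genes described here encode the proteins of the cytosolic ribosome, the machine that translates nuclear-encoded mRNAs. They were chosen by symbol, as Rpl or Rps followed by a number and at most an a or an x, or as Rplp0, Rplp1 or Rplp2, with a mean count of at least 10 over the samples. The rule found 75 of the 54833 genes in the table, 29 of the small and 46 of the large subunit, and all 75 were among the 21495 genes with enough counts to be tested. RNA had been sequenced from perihematomal tissue of the ipsilateral caudate putamen in 12 samples, 3 in each of 4 groups. The young sham and young ICH mice were 8 to 10 weeks old, and the aged sham and aged ICH mice were 20 to 22 months old, all of them male and WT. Intracerebral hemorrhage (ICH) had been induced with type Ⅳ collagenase, an enzyme that breaks down vessel walls, the sham mice had been injected without it, and tissue was taken at 24 h from mice perfused with saline. Each sample pooled tissue from a few mice, so replicate error here is that between pools of animals. The comparisons asked how ICH moves these genes at each age and whether age moves them with or without ICH.

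A ribosome consists of a small subunit, which reads the mRNA, and a large subunit, which joins amino acids, and every cell makes the proteins of both in matched amounts. Most of these mRNAs start with a C and a run of pyrimidines, the terminal oligopyrimidine (TOP) sequence, through which mTORC1 and the binding protein Larp1 set how well they are translated. MYC and the supply of ribosomal RNA set how much of the machine is built in growing cells.

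The first transcribed bases are shown because the TOP sequence is the feature that the family is known to share. Windows of 15 bases before and 15 bases from the transcription start that RefSeq lists (GRCm38.p6) could be read for 55 of the 75 genes. The pattern searched was a C followed by at least 4 bases that are each C or T, on the strand of the gene. Capitals mark that run, and windows without capitals have no such run within 5 bases of the start.
Rps6, chr4:86857353-86857382, minus strand: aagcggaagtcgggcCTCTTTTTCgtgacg
Rps18, chr17:33955651-33955680, minus strand: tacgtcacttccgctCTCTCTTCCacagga
Rps27, chr3:90213634-90213663, minus strand: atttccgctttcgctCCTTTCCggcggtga
Rpl35, chr2:39005117-39005146, minus strand: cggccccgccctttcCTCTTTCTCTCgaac
Rpl38, chr11:114668565-114668594, plus strand: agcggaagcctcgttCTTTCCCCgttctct
Rpl15, chr14:18270972-18271001, minus strand: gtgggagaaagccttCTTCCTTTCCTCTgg
Rps10, chr17:27635230-27635259, minus strand: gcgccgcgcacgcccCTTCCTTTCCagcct
Rpl18, chr7:45718056-45718085, plus strand: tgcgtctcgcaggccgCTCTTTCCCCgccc
Rpl7a, chr2:26910792-26910821, plus strand: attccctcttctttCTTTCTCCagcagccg
Rplp0, chr5:115559452-115559481, plus strand: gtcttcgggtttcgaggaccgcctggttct
Rps4x, chrX:102189377-102189406, minus strand: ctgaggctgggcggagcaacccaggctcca
The run began exactly at a listed start in 13 of the 55 genes, or 23.6%, against 3.01% of the 27025 genes with such windows. Within 5 bases of a start it was found in 27 genes, or 49.1%, against 21.2% of all. In the windows shown, the first 7 genes have it at the start, Rpl18 has it 1 base after and Rpl7a 1 base before the start, and Rplp0 and Rps4x have none in these letters. The other 20 genes, among them Rpl17, Rpl21, Rpl23a, Rpl29, Rpl3, Rpl30, Rpl32, Rpl36, Rpl7, Rpl8, Rplp1, Rps14, Rps20, Rps27a and Rps29, were not in the table of starts.

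The libraries held 28410896 to 37785160 counts on genes, and none of them duplicated another. Markers of the striatum were present in each, with a summed level of 326.6 to 3049 CPM (counts scaled to the normalized library size). It was 1790 to 3049 CPM in young sham and 515.9 to 1738 CPM in young ICH samples. In aged mice it was 1524 to 2662 CPM in sham and 326.6 to 1926 CPM in ICH samples, lowest in aged ICH replicate 1. Markers of the choroid plexus, which lies beside this region, were uneven, with sums of 4201 CPM in young ICH replicate 3, 2025 in aged ICH replicate 2 and 1601 in aged ICH replicate 1 and of 14.94 to 511.9 CPM in the other 9 libraries. Counts on 36 of the 75 genes are uncertain to the extent that their exons overlap other genes, and those on any of them to the extent that reads also align to pseudogenes. Ribosomal protein pseudogenes took 0.02778 to 0.04279% of the counts of a library. The handling of reads with several alignments is not given, so this share does not bound the reads that the family lost or gained.

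The genes took more of the RNA after ICH at both ages. Their share of all counts was 0.7124, 0.6535 and 0.7254% in the 3 young sham samples and 0.9422, 0.8673 and 0.9975% in the 3 young ICH samples. It was 0.7345, 0.7519 and 0.7364% in the aged sham samples and 1.044, 0.9861 and 0.9682% in the aged ICH samples. Each ICH sample lay above each sham sample, and each aged sham sample lay above each young sham sample, whereas the young and the aged ICH samples overlapped. The order of the sham groups held for this share of unscaled counts only. Scaled to the normalized library size, the genes' mean log2 CPM overlapped between young sham (6.088 to 6.256) and aged sham samples (6.188 to 6.253). The share of small-subunit genes went from 0.2592 ± 0.01449% to 0.3546 ± 0.02475% in young and from 0.2754 ± 0.00384% to 0.3825 ± 0.02076% in aged mice (mean ± SD, n = 3), and that of large-subunit genes from 0.4379 ± 0.02378% to 0.5811 ± 0.04069% and from 0.4656 ± 0.005786% to 0.6169 ± 0.01894%. A share is relative to all other counts of its sample. Whether this rise is more RNA per cell, more cells rich in these mRNAs or less other RNA cannot be told apart in bulk tissue. Beside it, transcripts of the mitochondrial genome went from 4.915 to 5.516% of counts in young sham to 6.352 to 7.164% in young ICH samples, and from 5.492 to 6.272% to 6.926 to 7.266% in aged mice. With these transcripts left out of the total, the family's median share was 0.754% in young sham and 1.006% in young ICH samples. In aged mice it was 0.7835% in sham and 1.061% in ICH samples. No further test of their part was made.

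**Figure D1:**
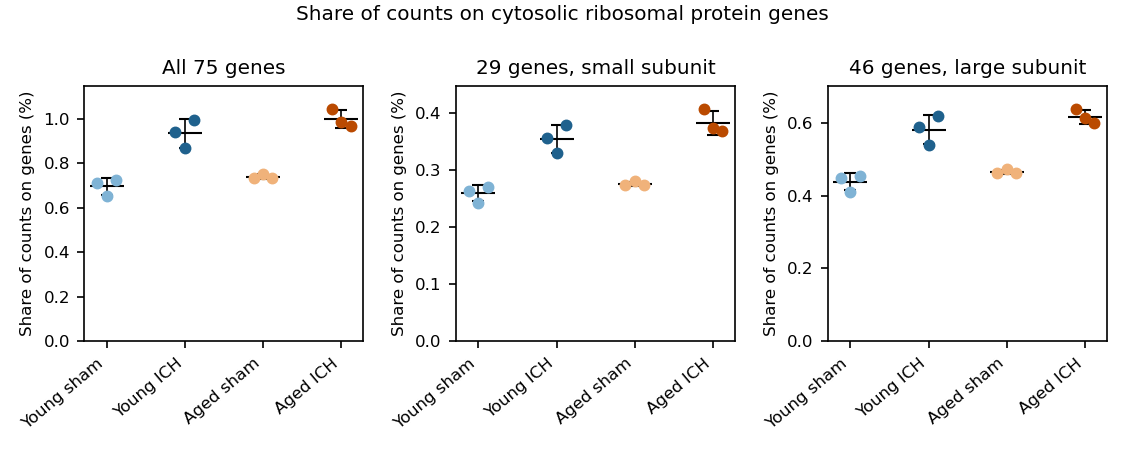
Share of all counts on genes, in percent, that fell on the 75 ribosomal protein genes (left), the 29 genes of the small subunit (middle) and the 46 genes of the large subunit (right). Each point is a sample, and the bar and whiskers are the mean ± SD of the 3 samples of a group; the ICH samples of each age all sit above the sham samples of that age.

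In young mice, 60 of the 75 genes rose after ICH and none fell (edgeR's quasi-likelihood test, adjusted P under 0.05 over all genes tested), where 9.89% of all genes rose and 9.23% fell. All 75 had a log2 fold change above 0, against 52.7% of all genes, and 66 had every ICH sample above every sham sample, against 18.5% of all. The changes were small and alike. Their median was 0.35 on the log2 scale, a 1.273-fold rise, with quartiles of 0.28 and 0.42, and the median over all genes tested was 0.02. A rise of more than 1.5-fold with an unadjusted P under 0.05, the criterion for a changed gene in this study, was met by 2 of the genes against 8.66% of all genes. The medians of the small and the large subunit were 0.37 and 0.32, with 25 of 29 and 35 of 46 genes called.

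In aged mice, 63 of the 75 genes rose and none fell, where 7% of all genes rose and 6.15% fell. Again all 75 lay above 0, against 50.3% of all genes, and 69 had groups that did not overlap, against 17.8% of all. The median log2 fold change was 0.38, or 1.298-fold, with quartiles of 0.30 and 0.46, beside 0.00 over all genes. The fold criterion was met by 8 of them against 7.24% of all genes. The small subunit had a median of 0.40 with 27 of 29 genes called, and the large subunit 0.37 with 36 of 46. The aged ICH and the young ICH group were each compared with their own sham group, so these comparisons contrast different samples. Both came from the same fit of all 12 samples, however, and share its estimate of the spread. In both, 57 genes were called higher, where 5.33% of all genes were. With only the 2 groups compared in a fit, 48 genes rose in young and 64 in aged mice, where 6.5 and 6.53% of all genes rose.

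The count in aged mice depended on aged ICH replicate 1, without which 33 genes were called, at a median of 0.33 and with 1.86% of all genes rising. Without young sham replicate 2, which had the lowest share, 40 genes were called in young mice at a median of 0.29 and with 4.38% of all genes rising. Without the 3 libraries high in choroid plexus markers, a choice made after seeing the data that leaves 1 aged ICH sample, 43 genes rose in young and 14 in aged mice at medians of 0.31 and 0.33, with 4.82 and 1.19% of all genes rising. No gene of the family was called lower in these fits.

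**Figure D2:**
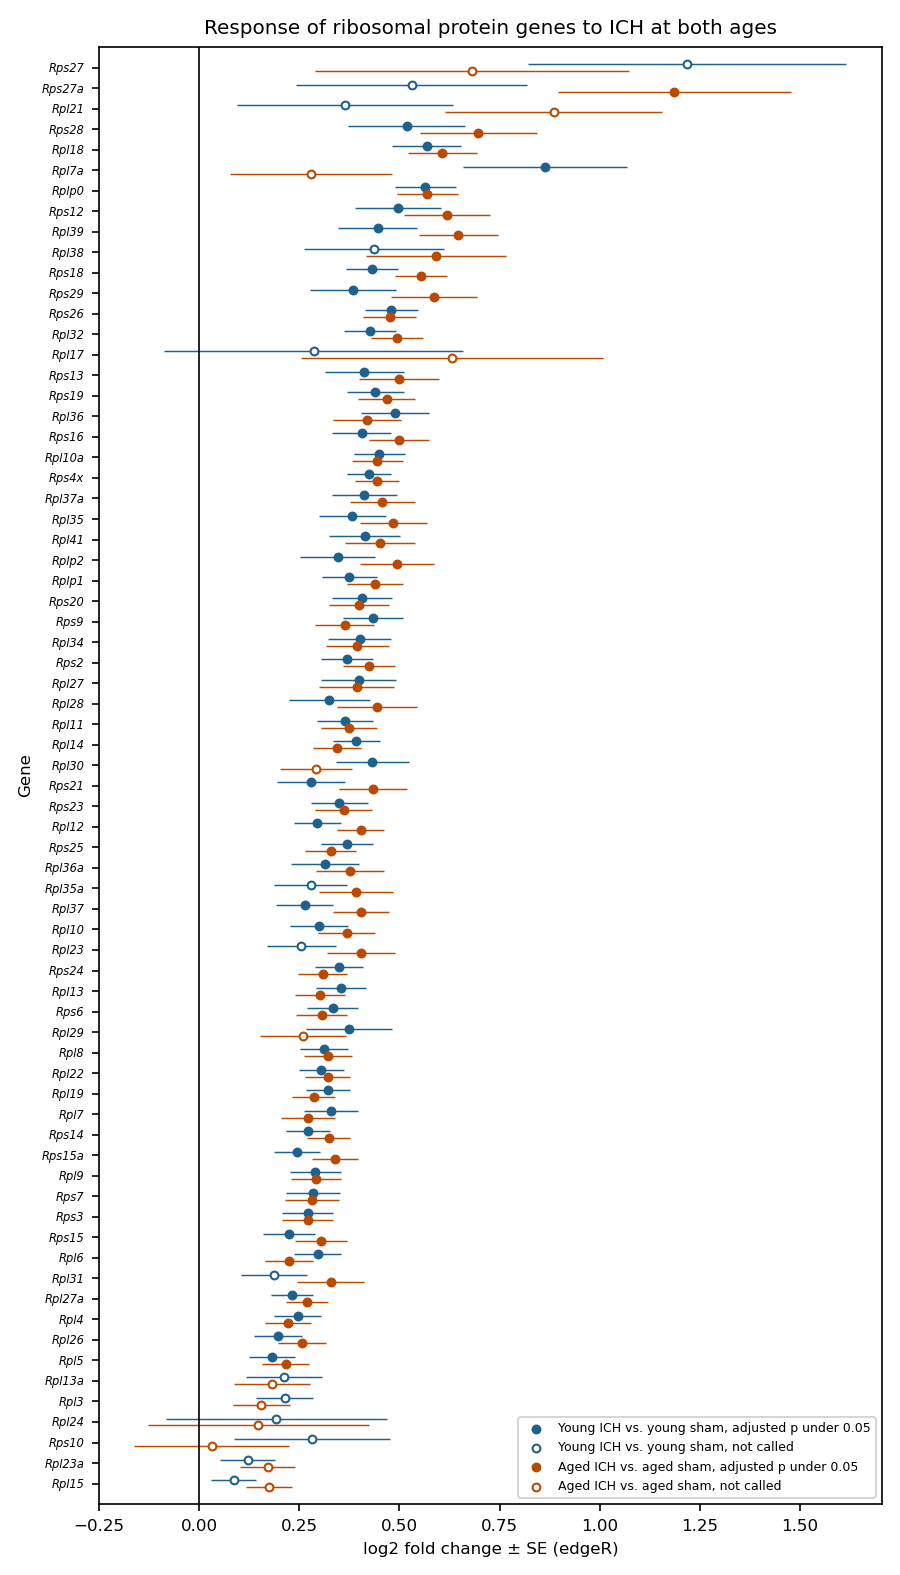
Log2 fold change (x axis) of 70 of the 75 genes (y axis) in young ICH vs. young sham (blue) and aged ICH vs. aged sham (orange), with bars of ± SE from edgeR; filled points passed an adjusted p of 0.05 and open points did not. All points lie to the right of 0, most of them between 0.2 and 0.6, and the long bars belong to Rps27, Rps27a, Rpl21, Rpl7a, Rpl17 and Rpl24.

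The stalk proteins recruit elongation factors to the large subunit. Rplp0, the base of the stalk (chr5:115559467-115563727 of GRCm38), stood at 168, 160.2 and 163.8 CPM in young sham and 234.8, 227.9 and 265.5 CPM in young ICH samples. In aged mice it went from 165.1, 149 and 168 CPM to 257.4, 224.5 and 234.1 CPM. The groups did not overlap at either age, and Rplp0 rose, with log2 fold changes of 0.56 ± 0.08 (SE) and 0.57 ± 0.08 (edgeR, adjusted P = 0.001604 and 0.003658). Rplp1, which pairs with Rplp2 on the stalk, rose by 0.38 ± 0.07 and 0.44 ± 0.07 (edgeR, adjusted P = 0.004459 and 0.005153). Rplp2 rose by 0.35 ± 0.09 and 0.49 ± 0.09 (edgeR, adjusted P = 0.02502 and 0.008802).

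Rps6 is the small-subunit protein that S6 kinases phosphorylate when mTORC1 is active. It lay at 172.4, 153.4 and 171.3 CPM in young sham, 212.8, 194.2 and 218.9 in young ICH, 181.3, 178.3 and 175.8 in aged sham and 228.6, 220.2 and 213.4 in aged ICH samples, so the ICH samples of both ages were above all sham samples. Its log2 fold changes were 0.33 ± 0.06 and 0.31 ± 0.06 (edgeR, adjusted P = 0.005523 and 0.01241). Rps4x, an X-linked protein of the small subunit, had the smallest adjusted P of the family in young mice, with a rise of 0.42 ± 0.06 (edgeR, adjusted P = 0.001427), and rose by 0.44 ± 0.06 in aged mice (edgeR, adjusted P = 0.003163). Rps18 had the smallest adjusted P in aged mice, with a rise of 0.56 ± 0.06 (edgeR, adjusted P = 0.002891) beside 0.43 ± 0.06 in young mice (edgeR, adjusted P = 0.002169).

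Rpl18, a protein of the large subunit, was near Rplp0 in size. It went from 61.6, 56.1 and 68.1 to 94.1, 83.9 and 97.3 CPM in young and from 63.8, 60.7 and 62.7 to 104.7, 89.3 and 91.2 CPM in aged mice, with no overlap. These are log2 fold changes of 0.57 ± 0.09 and 0.61 ± 0.09 (edgeR, adjusted P = 0.002238 and 0.004201). Rps28, a small protein at the mRNA exit of the small subunit, rose by 0.52 ± 0.15 and 0.70 ± 0.15 (edgeR, adjusted P = 0.0296 and 0.01264), and aged ICH replicate 1 was highest at 39.7 CPM beside 26.3 and 28.2 CPM in the other aged ICH samples.

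Rpl5 and Rpl11 bind Mdm2 when they are free of the ribosome and so tie ribosome assembly to p53. Both rose, Rpl5 by 0.18 ± 0.06 and 0.22 ± 0.06 (edgeR, adjusted P = 0.04705 and 0.03184), among the smallest called changes, and Rpl11 by 0.36 ± 0.07 and 0.38 ± 0.07 (edgeR, adjusted P = 0.005498 and 0.008557). Mutations of genes such as Rps19, Rps24, Rps7, Rps10, Rps26 and Rpl35a in people cause Diamond-Blackfan anemia. Rps19 rose by 0.44 ± 0.07 and 0.47 ± 0.07 and Rps26 by 0.48 ± 0.07 and 0.48 ± 0.07, and Rps24 and Rps7 were also called at both ages. Rpl35a was called in aged mice only, with an adjusted P of 0.05529 by edgeR in young mice, just outside the threshold, and Rps10 at neither age.

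Around the exit tunnel, through which the new protein leaves, Rpl4 rose by 0.25 ± 0.06 and 0.22 ± 0.06 and Rpl35 by 0.38 ± 0.08 and 0.49 ± 0.08, with adjusted P of 0.01347 and 0.02771 and of 0.01005 and 0.006606 by edgeR. Rpl23a, which lies beside Rpl35 at the tunnel exit and docks the signal recognition particle, stood at 73.1, 65.8 and 68.6 CPM in young sham, 77.1, 69.8 and 78.8 in young ICH, 70.5, 74.2 and 66.2 in aged sham and 75.8, 79.1 and 82.4 in aged ICH samples. Its log2 fold changes of 0.12 ± 0.07 and 0.17 ± 0.07 were not called. Rps3, at the mRNA entry, rose by 0.27 ± 0.06 at both ages (edgeR, adjusted P = 0.01297 and 0.01879). Rps25 and Rpl38 are known for roles in the translation of particular mRNAs. Rps25 rose by 0.37 ± 0.06 and 0.33 ± 0.06, and Rpl38 was at 0.44 ± 0.18, not called, in young and rose by 0.59 ± 0.18 in aged mice (edgeR, adjusted P = 0.1044 and 0.04516), where aged ICH replicate 1 at 73 CPM stood apart from 45 and 41.3 CPM.

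Several genes have a paralog elsewhere in the genome. Of them, Rpl22 rose by 0.30 ± 0.06 and 0.32 ± 0.06, Rpl7 by 0.33 ± 0.07 and 0.27 ± 0.07, Rpl10 by 0.30 ± 0.07 and 0.37 ± 0.07 and Rpl36a by 0.31 ± 0.08 and 0.38 ± 0.08. Rpl39 rose by 0.45 ± 0.10 and 0.65 ± 0.10. The paralogs themselves were few and low, at 79.67 to 127.7 CPM in sum. Of 9, 7 were tested, and only Rps27l, a p53 target, rose at both ages, by 0.84 ± 0.17 and 0.96 ± 0.17 (edgeR, adjusted P = 0.007688 and 0.007768). Among all genes tested, 5.33% rose at both ages. Rpl7l1 was at 0.21 ± 0.07 in young mice, not called, and rose by 0.24 ± 0.07 in aged mice (edgeR, adjusted P = 0.05879 and 0.04171). Rpl22l1 and Rps4l were not called at either age, and no count fell on Rpl10l.

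**Figure D3:**
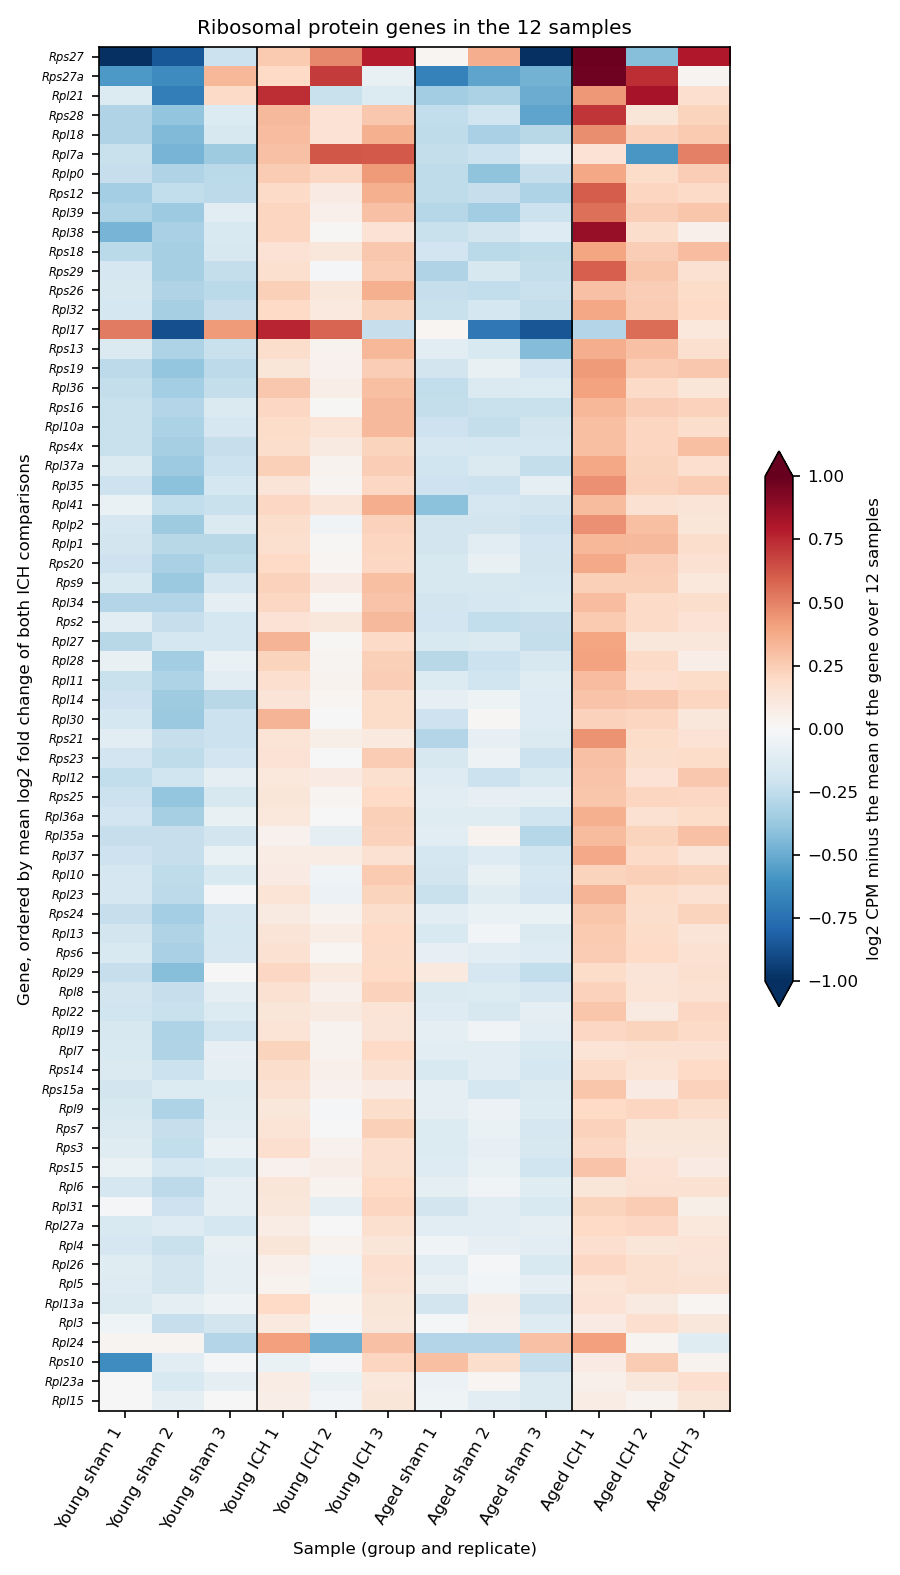
Level of 70 of the 75 genes (rows, ordered by the mean of both log2 fold changes) in the 12 samples (columns), as log2 CPM minus the mean of the gene over all samples, with red above and blue below that mean and the scale cut at 1 on either side. The sham columns are mostly blue and the ICH columns mostly red, and Rps27, Rps27a, Rpl21, Rpl7a and Rpl17 vary within groups.

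Of the 75 genes, 73, 68 and 72 were above all young sham samples in young ICH replicates 1, 2 and 3, where 35.6, 34.5 and 37.6% of all genes were. In aged ICH replicates 1, 2 and 3, 73, 71 and 72 were above all aged sham samples, against 36.7, 31.3 and 34.7% of all genes. For 69 genes the SE of the log2 fold change was below 0.2, from 0.052 to 0.195 in young and to 0.193 in aged mice, and 59 of these were called in young and 62 in aged mice. The other 6 were Rpl17, Rpl21, Rpl24, Rpl7a, Rps27 and Rps27a, and the 2 largest log2 fold changes at each age were among them.

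Rps27 (chr3:90212522-90213651), a zinc finger protein of the small subunit, stood at 11.9, 14.8 and 22.9 CPM in young sham and 32, 37.2 and 46 CPM in young ICH samples. In aged mice it was at 27, 34.2 and 12.9 CPM in sham and 52.6, 19.8 and 46.3 CPM in ICH samples. The groups did not overlap in young mice and overlapped in aged mice. Its log2 fold change of 1.22 ± 0.40 in young mice was the largest of the family and missed the threshold (edgeR, adjusted P = 0.05156), and that in aged mice was 0.68 ± 0.39 (edgeR, adjusted P = 0.2765). Its paralog Rps27rt stood at 27.63, 15.83 and 11.29 CPM in young sham and 18.49, 8.09 and 10.46 in young ICH samples. In aged mice Rps27rt was at 12.38, 6.04 and 25.48 CPM in sham and 9.65, 39.27 and 5.81 in ICH samples. In each group Rps27rt was highest in the sample in which Rps27 was lowest. How reads were split between these genes was not tested.

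Rps27a (chr11:29545846-29548109) encodes ubiquitin fused to a protein of the small subunit. It lay at 39.3, 37.8 and 73.6 CPM in young sham, 67.2, 94.9 and 55.5 in young ICH, 36.7, 40.7 and 42.2 in aged sham and 114.7, 97.8 and 59.6 in aged ICH samples. Only the aged groups did not overlap, and Rps27a rose by 1.19 ± 0.29 in aged mice (edgeR, adjusted P = 0.02272) and was at 0.53 ± 0.29 in young mice (edgeR, adjusted P = 0.2229). Rpl21, of the large subunit, was at 28.8, 19.6 and 36.2 CPM in young sham, 52.8, 27.2 and 28.9 in young ICH, 24.9, 25.4 and 22.5 in aged sham and 42.8, 56 and 35.6 in aged ICH samples. Its log2 fold change of 0.88 ± 0.27 in aged mice missed the threshold although the groups did not overlap (edgeR, adjusted P = 0.05156), and that in young mice was 0.36 ± 0.27 (edgeR, adjusted P = 0.3751).

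Rpl7a (chr2:26910764-26913318), of the large subunit, was called in young mice. It was at 44.8, 37.9 and 41 CPM in young sham and 64.3, 80.6 and 80.2 in young ICH samples, and at 44.3, 45.2 and 48.5 CPM in aged sham and 58, 35 and 74.3 in aged ICH samples. It rose by 0.86 ± 0.20 in young mice (edgeR, adjusted P = 0.01415), and in aged mice, where aged ICH replicate 2 lay below all aged sham samples, the value was 0.28 ± 0.20 (edgeR, adjusted P = 0.3998). Rpl17, which lines the exit tunnel, ranged from 26.2 to 68.9 CPM within the young sham group alone, and its values of 0.29 ± 0.37 and 0.63 ± 0.38 were not called.

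At the other end, Rpl15, of the large subunit, had the smallest log2 fold change of the family in young mice. It stood at 142.1, 133.6 and 142.8 CPM in young sham and 149.4, 139.6 and 155.1 CPM in young ICH samples, which overlap, and at 138.5, 131.4 and 129.2 CPM in aged sham and 149.7, 145.6 and 155.1 CPM in aged ICH samples, which do not. Its log2 fold changes of 0.09 ± 0.06 and 0.18 ± 0.06 were not called (edgeR, adjusted P = 0.3178 and 0.06369). Rpl3, which lies at the peptidyl transferase centre, was at 0.21 ± 0.07 and 0.16 ± 0.07, with adjusted P of 0.05465 and 0.1726 by edgeR. Rpl31, beside the tunnel exit, was at 0.19 ± 0.08 in young mice, not called, and rose by 0.33 ± 0.08 in aged mice (edgeR, adjusted P = 0.1398 and 0.02541).

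The 9 genes called at neither age included Rpl24, Rps10 and Rpl13a. Of the 9 genes, 7 share exon bases with another gene, as do 36 of the 75. Rpl24 had a mean of 32.5 counts a sample and levels of 0.7 to 1.3 CPM, and its log2 fold changes of 0.19 ± 0.28 and 0.15 ± 0.28 are within their errors. Rps10 had a mean of 94.83 counts and values of 0.28 ± 0.20 and 0.03 ± 0.19. Of their exon bases, 47% and 28.7% are shared with other genes, among them the readthrough genes Gm28037 and RPS10-NUDT3, which had 0 counts in each of the 12 samples. Rpl13a is a part of the interferon-activated inhibitor of translation complex and a host of snoRNAs. It had 369.6 counts on average, with 35.4% of its exon bases shared, and was at 0.21 ± 0.10 and 0.18 ± 0.10. A difference of the size seen in the rest of the family was not detectable for Rpl24 and Rps10 at such low counts. How reads on shared exon bases were counted is not given, so these counts need not reflect low levels of the mRNAs.

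Per transcript length, the levels of the genes spanned a wide range. The mean FPKM (fragments divided by transcript length and by sequencing depth) over the 12 samples had a median of 52.16 over the 75 genes. Rplp1 was highest at 465.3 FPKM, followed by Rps15 at 258.5, Rpl4 at 192.9, Rpl19 at 144.9 and Rpl8 at 134.6 FPKM. The lowest were Rpl35a at 13.13, Rpl21 at 9.878, Rpl13a at 5.458, Rps10 at 1.291 and Rpl24 at 0.9769 FPKM. In all, 14 genes exceeded 100 FPKM and 4 were below 10 FPKM. Rplp1 ranged from 360 to 596.7 FPKM over the samples and Rps15 from 216.4 to 323.1 FPKM, so their ranges did not meet, whereas the range of Rps15 met that of Rpl4, and that of Rpl19 met that of Rpl8. The order was nearly the same in each group, with Spearman's rho of 0.9879 to 0.9944 between the group means across the 75 genes. This is a description across genes that share libraries, transcript lengths and base composition. The length set by the counting ran from 383 to 6270 bases with a median of 1770, and read counts per length depend on which transcripts it includes. They also depend on how reads on shared exon bases were counted, which is not given.

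**Figure D4:**
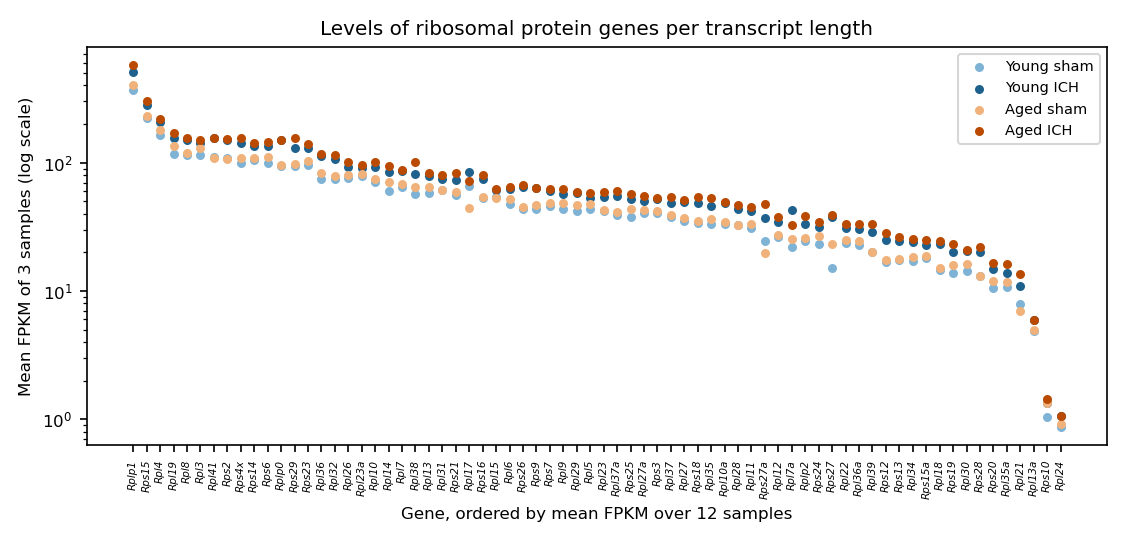
Mean FPKM of the 3 samples of each group (y axis, log scale) for 70 of the 75 genes (x axis), ordered by the mean over the 12 samples. The 4 groups follow the same order from Rplp1 at 465.3 FPKM to Rpl24 at 0.9769 FPKM, and the ICH groups lie above the sham groups in most genes.

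Short transcripts rose slightly more than long ones over all genes, so the family was also read by length. Among genes of under 1000 bases, the median log2 fold change of all 2449 was 0.12 in young and 0.12 in aged mice, and that of the 10 ribosomal protein genes was 0.36 and 0.44. From 1000 to 2000 bases it was 0.11 and 0.08 over all and 0.37 and 0.40 over 32 genes of the family, and from 2000 to 4000 bases 0.06 and 0.03 over all and 0.30 and 0.32 over 27. Over 4000 bases, it was −0.04 and −0.06 over all and 0.38 and 0.37 over 6. The family lay above the genes of its length in each class. The genes with exons that overlap no other gene had medians of 0.35 and 0.39, those with an overlap 0.34 and 0.35. The 13 genes with the pyrimidine run at the start had medians of 0.33 and 0.44, with 8 and 10 called, and the other 42 in the table of starts 0.35 and 0.37, with 38 and 39 called. Over all genes, 9.89% rose in young and 7% in aged mice. The 42 include genes with the run within 5 bases of the start, such as Rpl18 and Rpl7a, so they are not a group without it.

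The other genes of the pathway were grouped by role. The 5 cytosolic ribosomal proteins whose symbols the rule does not match, among them Rpsa, Rps3a1, Fau and Rack1, all rose at both ages, with medians of 0.36 and 0.39. Rpsa rose by 0.36 ± 0.07 and 0.39 ± 0.07 (edgeR, adjusted P = 0.004276 and 0.006169). Noncoding hosts of snoRNAs, which guide the modification of ribosomal RNA and carry TOP sequences, had medians of 0.46 and 0.37, with 5 and 4 of 7 called. Of all genes tested, 9.89% rose in young and 7% in aged mice. Gas5 rose by 0.43 ± 0.06 and 0.37 ± 0.06 (edgeR, adjusted P = 0.001607 and 0.005259), and Snhg1 by 0.60 ± 0.11 and 0.58 ± 0.11 (edgeR, adjusted P = 0.004007 and 0.007999).

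The 18 translation factors and other mRNAs known for TOP sequences were less uniform, with medians of 0.16 and 0.15, of which 7 rose and 1 fell at each age. Of all genes tested, 9.89% rose and 9.23% fell in young mice, and 7% rose and 6.15% fell in aged mice. The elongation factor subunits Eef1b2 and Eef1d, the poly(A)-binding protein Pabpc1 and the nascent chain protein Btf3 rose, Btf3 by 0.45 ± 0.05 and 0.31 ± 0.05 (edgeR, adjusted P = 0.0009325 and 0.005579). Nap1l1, a histone chaperone, fell by 0.28 ± 0.06 and 0.20 ± 0.06 on the log2 scale (edgeR, adjusted P = 0.008466 and 0.0395). The elongation factor Eef1a1 was at 0.16 ± 0.09 and 0.12 ± 0.09 and Eef2 at 0.12 ± 0.06 and 0.09 ± 0.06, and neither was called.

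Of 45 genes of rRNA synthesis and ribosome assembly, 7 rose and 2 fell in young mice and 11 rose and none fell in aged mice, with medians of 0.09 and 0.14. Over all genes, 9.89% rose and 9.23% fell in young mice, and 7% rose and 6.15% fell in aged mice. Ddx21, a nucleolar helicase, rose by 0.68 ± 0.10 and 0.53 ± 0.10 (edgeR, adjusted P = 0.001909 and 0.008637), and Nop2, Gnl3, Mybbp1a, Mrto4, Ftsj3 and Taf1d also rose at both ages. Ubtf, which binds rDNA for RNA polymerase I, fell by 0.25 ± 0.06 on the log2 scale in young mice (edgeR, adjusted P = 0.01321). Of 17 genes of the mTORC1 and MYC control of ribosomes, 5 rose and 3 fell in young and 4 rose and 2 fell in aged mice, with medians of 0.00 and −0.01. Myc rose by 1.12 ± 0.22 and 0.93 ± 0.22 (edgeR, adjusted P = 0.005897 and 0.0189), and Eif4ebp1, a repressor of the cap-binding protein Eif4e, by 0.91 ± 0.24 and 1.24 ± 0.24 (edgeR, adjusted P = 0.02385 and 0.0102). Mtor fell by 0.37 ± 0.07 and 0.33 ± 0.07 on the log2 scale (edgeR, adjusted P = 0.004099 and 0.01019), and Eif4e fell by 0.24 ± 0.04 and 0.15 ± 0.04 (edgeR, adjusted P = 0.004842 and 0.04516).

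The proteins of the mitochondrial ribosome, which translates the mitochondrial genome, differed from the cytosolic family. Of 79 tested genes, 4 rose in young mice and 3 rose and 1 fell in aged mice, fewer than the 9.89 and 7% over all genes, with medians of 0.00 and 0.01. Mrps6 rose by 1.07 ± 0.22 and 1.11 ± 0.22 (edgeR, adjusted P = 0.007576 and 0.01015) and Mrpl41 by 0.41 ± 0.07 and 0.27 ± 0.07 (edgeR, adjusted P = 0.003489 and 0.0262). Of 404 rows of ribosomal protein pseudogenes, 83 were tested. Their medians of 0.33 and 0.34 lay near those of the cytosolic family, whereas the 9 and 7 that rose are close to the share over all genes.

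**Figure D5:**
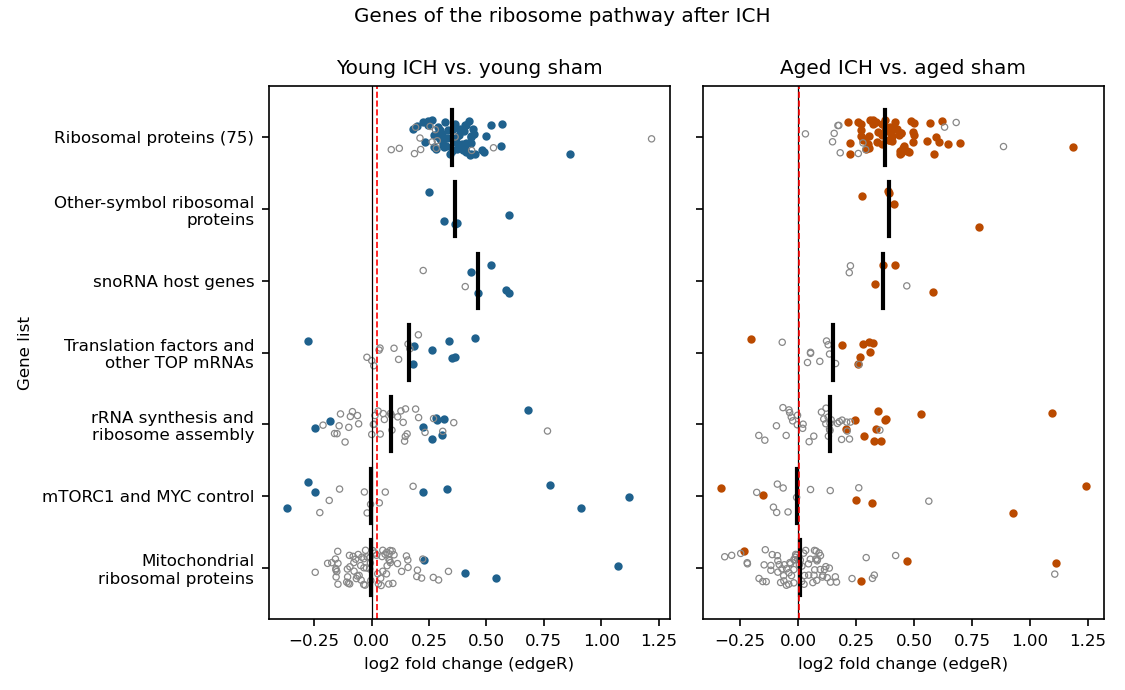
Log2 fold change (x axis) of each tested gene in 7 gene lists (y axis) in young ICH vs. young sham (left) and aged ICH vs. aged sham (right); filled points passed an adjusted p of 0.05, open points did not, the black bars are list medians and the red dashed line is the median of all genes tested. The cytosolic ribosomal proteins sit to the right of 0 as a narrow band, with medians of 0.35 and 0.38, whereas the mitochondrial ribosomal proteins center on 0.

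Cell markers moved in the same samples. Beside their counts, 9.89% of all genes rose and 9.23% fell in young mice, and 7% rose and 6.15% fell in aged mice. Neutrophil markers rose in 7 of 9 genes tested in young and 6 of 9 in aged mice, with summed levels of 11.33 to 13.89 CPM in young sham, 22.14 to 40.21 in young ICH, 16.25 to 27.76 in aged sham and 40.94 to 57.62 CPM in aged ICH samples. Monocyte and macrophage markers rose in 7 and 6 of 12 genes, from 151.5 to 171.2 CPM to 302.3 to 365.8 in young and from 126.7 to 215.6 CPM to 298.9 to 373.3 in aged mice. Endothelial markers rose in 7 and 5 of 10 genes, from 326.7 to 390.2 CPM to 457.7 to 479.2 and from 361.9 to 414.9 CPM to 421.3 to 509. Microglial markers were at 355.4 to 423.2 CPM in young sham, 363.5 to 440.9 in young ICH, 372.4 to 410.3 in aged sham and 369.4 to 435.5 in aged ICH samples, with overlap throughout, and none rose and 2 fell in young mice and 1 rose and 2 fell in aged mice.

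Neuronal markers were at 7963 to 9288 CPM in young sham, 5818 to 7506 in young ICH, 7701 to 8449 in aged sham and 6341 to 7017 in aged ICH samples, with 3 of 10 genes falling in young mice and none called in aged mice. Of 10 striatal and 10 choroid plexus markers none was called, with medians of −0.96 and −1.19 and of 1.78 and 2.80. Astrocyte markers rose in 4 and 3 of 10 genes, and 2 fell in aged mice, and oligodendrocyte markers fell in 4 of 10 genes in aged mice. Red blood cell markers rose in 3 and fell in 1 of 7 genes tested in young mice, and 1 of 6 lymphocyte markers rose there, with none of either called in aged mice. Of all these markers, only Ncr1 and Gzma, of the lymphocyte list, were at 0 in each sample of a group, in aged sham mice. Their part in the rise of the ribosomal protein genes was not tested.

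Without ICH, the levels of young and aged mice lay close together. In aged sham vs. young sham mice none of the 75 genes was called by edgeR, as against 0.102% of all genes, and 4 had an unadjusted P under 0.05, as against 12.3%. DESeq2 also called none of the 75, as against 1.37% of all genes. The log2 fold change was above 0 in 57 genes, against 51.7% of all, with a median of 0.03 beside 0.01 over all genes. The 4 genes, all higher in aged sham mice, were Rpl14 at 0.19, Rps24 at 0.17, Rps25 at 0.15 and Rpl19 at 0.14, with no overlap of the groups. Rpl14, of the large subunit, stood at 110, 98.8 and 104.3 CPM in young sham and 119.8, 122.2 and 115.8 CPM in aged sham samples. The extremes, Rps27 at 0.58 and Rps10 at 0.33 above and Rpl17 at −0.61, Rps27a at −0.33 and Rpl21 at −0.22 below 0, are genes with wide spreads or few counts. Without young sham replicate 2 the median was −0.003 and 37 genes were above 0, and without young sham replicates 1 and 3, each left out in turn, it was 0.053 and 0.061.

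After ICH, too, age gave no call. In aged ICH vs. young ICH mice none of the 75 genes was called by edgeR, as against 0.0558% of all genes, and 4, Rps19, Rpl35, Rpl14 and Rpl35a, had an unadjusted P under 0.05, as against 9.54%. DESeq2 also called none of the 75, as against 0.921% of all genes. Rpl35 was at 56.2, 52.2 and 59.3 CPM in young ICH and 70.3, 60.4 and 61.2 CPM in aged ICH samples, a log2 fold change of 0.20 with no overlap. Of the genes, 66 were above 0, against 49% of all, with a median of 0.08 beside −0.01 over all genes, and the ends were Rps27a at 0.32 and Rpl7a at −0.43. The median was 0.028 with 50 genes above 0 without young ICH replicate 2, 0.04 with 50 without aged ICH replicate 1 and 0.127 with 72 without young ICH replicate 3.

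The interaction, which is the response to ICH of the aged mice minus that of the young mice, was called for none of the 75 genes by edgeR, as for 0% of all genes, and none had an unadjusted P under 0.05, as against 2.82% of all. DESeq2 also called none of the 75, as against 0.00465% of all genes. It was above 0 in 48 genes, against 48.9% of all, with a median of 0.04. The median turned to −0.026 with 32 genes above 0 without aged ICH replicate 1 and to −0.011 with 35 without young ICH replicate 2, and leaving out young sham replicate 1, 2 or 3 or young ICH replicate 3 gave 0.023, 0.073, 0.013 and 0.082. The largest were Rps27a at 0.66 and Rpl21 at 0.52, and the lowest Rpl7a at −0.58 and Rps27 at −0.54, all of them genes with wide spreads within groups. Rpl17 at 0.345 and Rps29 and Rpl39, whose mRNAs code for very short proteins, at 0.20 each followed on the upper side. The genes called at a single age were thus not shown to differ between the ages. They were Rpl7a, Rpl29 and Rpl30 in young mice and 6 genes in aged mice, among them Rpl31, Rps27a, Rpl23, Rpl38 and Rpl35a.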

How the data were processed

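Male WT mice, young or aged, were sampled 24 h after ICH or sham surgery, with 3 pooled samples per group and 12 in all. The authors used HISAT2 for alignment to GRCm38.p6 and featureCounts for counting, and deposited raw counts and FPKM of 54833 genes. The strand setting and the handling of reads with several alignments: not given in the sources used here. Columns of the authors' own comparisons were not used, and 0 columns of values could not be assigned to a sample.

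Counts were tested with edgeR 4.0.16 (limma 3.58.1, R 4.3.3), by the quasi-likelihood test with TMM normalization, all 12 samples in a fit of 4 groups, and the 21495 genes that passed filterByExpr at a minimum count of 10. P values were adjusted by Benjamini-Hochberg over all genes tested, and 0.05 was the threshold. The SE of a log2 fold change is its size divided by the square root of F. CPM are counts scaled to the TMM library size. Gene positions came from GENCODE vM21 (GRCm38), start windows from RefSeq. The scripts were tested on simulated data. Depth was 28410896 to 37785160 counts per sample, and at a mean count under 100 (Rpl24, Rps10) counting error limits the precision.

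The members and all 19 other lists were chosen with earlier results of these data known. Genes named are the 4 highest and 4 lowest members of each comparison, the 5 highest and lowest by FPKM, members with the roles described, genes of the lists, and, chosen after their values were seen, the members with the smallest adjusted P, those called at a single age or under an unadjusted P of 0.05, and a few beside them. Part of those that the rule allows are named, and a few are not reported here, nor drawn in the plots by gene. Alternatives were DESeq2 1.42.0, its size factors, library totals, TMM without these genes, a length trend, no filter, limma on log2(FPKM + 1), only the groups compared, a replicate block, each sample left out, and, added after seeing the data, no libraries with summed choroid plexus markers over 1000 CPM.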

Additional observations from a re-analysis of the deposited data

How the results depend on the processing

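In the comparisons with ICH, no alternative turned the median or gave a ribosomal protein gene that fell, and 72 genes in young and 73 in aged mice were above 0 in each of the 24 fits, with 37 and 13 called in each. The share of all genes that were called in each fit was not counted. Over the fits that leave out a sample, the genes called in young mice ranged from 40 to 65 at medians of 0.29 to 0.41. Of all genes, 4.38 and 9.9% rose in the fits with these lowest and highest counts. In aged mice the genes called ranged from 33 to 66 at medians of 0.33 to 0.41, in fits where 1.86 and 7.3% of all genes rose. DESeq2 called 65 in young and 66 in aged mice, where it called 10.7 and 8.37% of all genes higher. The median in young mice was 0.44 with library totals and 0.43 with limma on FPKM. Without the 3 libraries high in choroid plexus markers, 14 genes were called in aged mice. As a share of FPKM the family took medians of 1.671% in young sham, 2.074% in young ICH, 1.721% in aged sham and 2.15% in aged ICH mice, and without mitochondrially encoded genes 0.754% in young sham, 1.006% in young ICH, 0.7835% in aged sham and 1.061% in aged ICH mice. The age comparisons and the interaction gave 0 calls in each fit, and leaving out a sample moved their medians from −0.003 to 0.061 (sham), 0.028 to 0.127 (ICH) and −0.026 to 0.082 (interaction). For the named genes, 73 and 101 alternatives lost a call in young and aged mice and 34 and 23 gained one, and an uncalled value changed sign in 3 and 7.

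Replicate numbers did not pair the samples, since the correlation of deviations in the 18 same-numbered pairs ran from −0.582 to 0.427 and exceeded 0.1 in 7. With the replicate block, 56 genes were called in young and 61 in aged mice, where 8.69 and 6.48% of all genes rose.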
